A study of Gallus gallus with 2 samples.

Results

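The genes described here are PPARGC1A, PPARA, PPARD, TFAM, CPT1A, CPT2, ACADL, HADHA, HADHB and UCP3, which act in the burning of fatty acids in mitochondria or in its control. They were chosen by gene symbol for their known functions, with earlier results of these data known, and all 10 were found among the 15073 genes listed. The tissue was breast muscle, taken from 12-week-old birds of the Xichuan black-bone strain. The paper does not give their sex. The control group received a basal diet and test group IV received the same diet with 0.8% added tyrosine. In each group the total RNA of 3 birds, taken after a fast, was pooled and sequenced as 1 library, called the control library and the tyrosine library below. The labels name no genetic modification and no further agent for either group. The spread between birds was therefore not measured, and no difference below has a replicate check or a test.

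Fatty acids enter the mitochondrion as carnitine esters. CPT1A on the outer membrane makes the ester, SLC25A20 carries it through the inner membrane, and CPT2 turns it back into an acyl-CoA, which ACADL and the trifunctional protein of HADHA and HADHB then shorten in repeated rounds. PPARA and PPARD are nuclear receptors that bind fatty acids and switch on these genes, PPARGC1A is a coactivator of such receptors, and TFAM packages and transcribes mitochondrial DNA. These roles are known mainly from mammals. UCP3 encodes a mitochondrial carrier of the uncoupling protein family, which in birds is expressed chiefly in skeletal muscle. Breast muscle of the chicken consists mostly of fast glycolytic fibres, which depend less on fatty acids than slow fibres do.

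The depth was 13135159 fragments for the control library and 14318101 for the tyrosine library. Levels are given as FPKM, the fragments of a gene scaled for transcript length and library depth, so that genes of different length can be compared. Differences are given as the log2 ratio of the FPKM of test group IV over that of the control group, with an exact Clopper-Pearson 95% interval from the fragment counts that covers counting error only. Of the fast fibre markers, 6 of 9 were found, and their summed FPKM was 30744 in the control library and 32696 in the tyrosine library. TNNT3, the most abundant of them, was the only lower one, with FPKM values of 9943 and 9424. PVALB was nearly absent, with 1 fragment in the control library and 5 in the tyrosine library. Of the slow fibre markers, 7 of 9 were found. TNNI1, the slow troponin I, had an FPKM of only 1.20 and 0.412, whereas TNNC1, the troponin C of slow fibres, had 9768 and 8333 and so went against a purely fast pattern. No listed gene lacked fragments in the control library, and genes found in the tyrosine library alone were not analysed here.

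UCP3 had by far the highest level of the 10 genes and the largest difference. It was lower in the tyrosine library, whereas the enzymes of fatty acid oxidation differed little, with 4 of 5 log2 ratios above 0. PPARA was the other gene at least 1.5-fold lower, and ACADL and TFAM were the highest above the control group. Of the 10 genes, 6 were higher and 4 lower in the tyrosine library. These directions were kept under the 4 alternative scalings, with HADHB at only 0.0021 under TMM scaling. The other alternatives, a pseudocount or another filter, cannot change a direction. The median log2 ratio of the 10 genes was 0.11, beside 0.09 over the 11010 genes that reached FPKM 1 in either library, which serve as all genes below. Of all genes, 60.6% were higher in the tyrosine library, so counts of higher genes are to be read beside that share. The lower genes include 37 with no fragment in the tyrosine library, whereas genes found in that library alone are missing. The shares of all genes below therefore lean toward lower. No member was at least 2-fold higher, beside 3.10% of all genes, and none was at least 2-fold lower, beside 3.31%. No member was at least 1.5-fold higher, beside 10.04% of all genes, and 2 of 10 were at least 1.5-fold lower, beside 8.24%. With TMM scaling, which moved the median of all genes to 0.0013, the genes at least 1.5-fold higher or lower numbered 860 and 1131 instead of 1105 and 907.

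**Figure D1:**
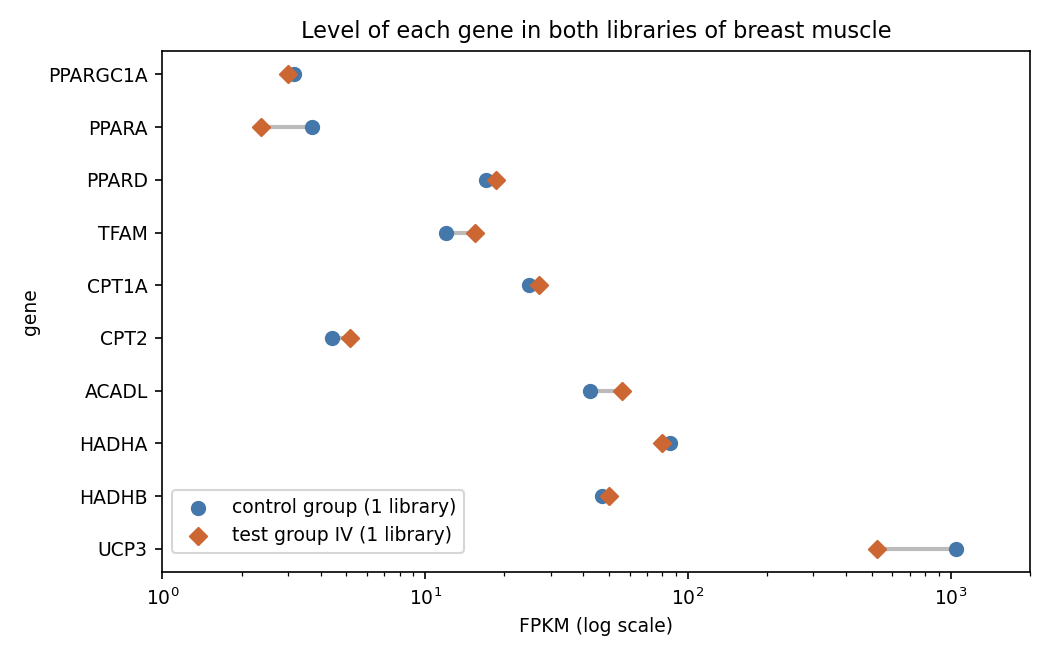
FPKM of the 10 genes on a log scale in the control library (circles) and test group IV (diamonds), with 1 library of pooled RNA per group. The levels reach from 2.38 for PPARA in the tyrosine library to 1050 for UCP3 in the control library, and UCP3 and PPARA show the widest gaps.

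UCP3 (ENSGALG00000017316) spans bases 195746081 to 195749014 of chromosome 1 in the Galgal5 assembly. It had 21245 fragments in the control library and 11589 in the tyrosine library, and its FPKM was 1050 and 525. The control library was thus the high one, by a factor of 1.999, just inside the 2-fold limit. The log2 ratio was -0.999, with a counting interval from -1.03 to -0.97 that includes -1. TMM or median ratio scaling put it past the limit, at -1.09 in either case. UCP3 ranked 44 by FPKM among all listed genes in the control library and 70 in the tyrosine library. It supplied 0.162% of all counted fragments in the control library and 0.0809% in the tyrosine library.

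Of all genes, 3.33% were as low or lower than UCP3 in their log2 ratio, itself included. The share was 1.91% (80) of the 4195 genes whose mean FPKM was 10 or more and 4.74% (19) of the 401 genes at 100 or more. In these pooled samples, fewer cells of a type and less RNA per cell cannot be told apart. Beside UCP3 on the chromosome, DNAJB13, which begins or ends 6 bases away and encodes a heat shock protein family member, had 1 fragment in the control library and 0 in the tyrosine library. Of the 6 other listed genes within 100 kb that reached FPKM 1, none was at least 1.5-fold lower, beside 8.24% of all genes. So few genes can hold none at that share. PAAF1, a proteasome assembly factor, had the highest log2 ratio of the 6, 0.76, from 33 and 61 fragments.

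**Figure D2:**
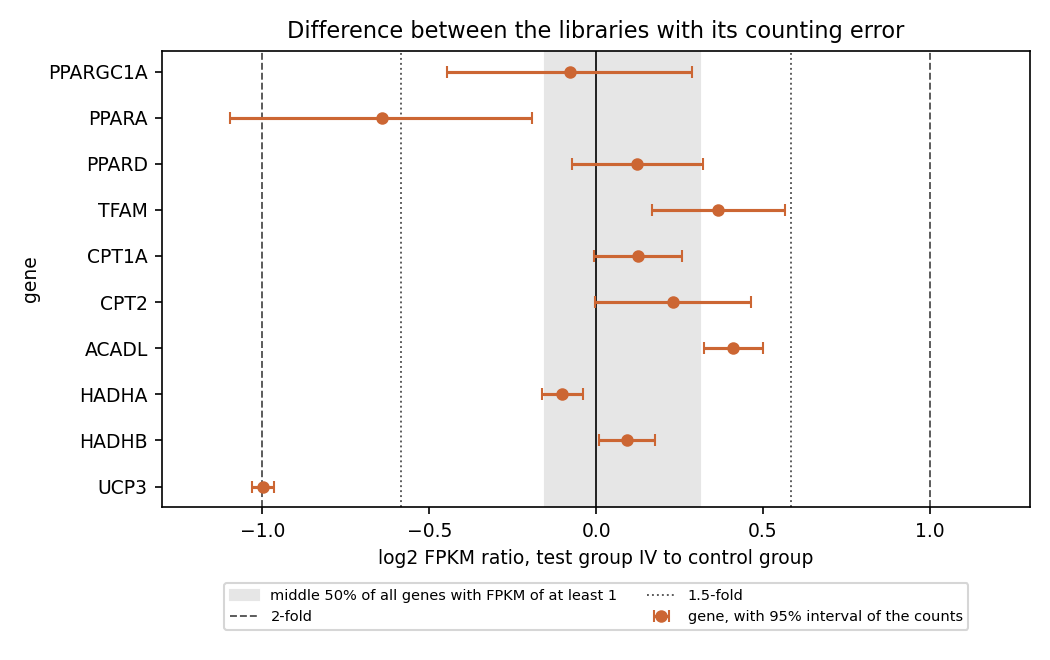
Log2 FPKM ratio of test group IV over the control group for each of the 10 genes (points), with the 95% interval from the fragment counts (bars), beside the middle 50% of all genes that reached FPKM 1 (grey band, from -0.15 to 0.31) and lines at 1.5-fold and 2-fold. UCP3 and PPARA lie to the left of the 1.5-fold line, and no gene lies to the right of it.

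Among the regulators, the 2 PPAR receptors differed in level, and of the 2 only PPARA had a counting interval that excluded 0. PPARA (ENSGALG00000041470), the receptor that directs fatty acid oxidation above all in liver, heart and oxidative muscle of mammals, lies on chromosome 1 from 71331992 to 71363344. It had 103 fragments in the control library and 72 in the tyrosine library, with FPKM values of 3.71 and 2.38. Its log2 ratio was -0.64, and the interval from -1.10 to -0.19 is wide because the counts were low. With 1 added to each FPKM it was -0.48, inside the 1.5-fold limit. The position of PPARA overlaps that of CDPF1, which had 78 and 87 fragments, and fragments from the shared stretch could not be told apart here. The only other listed gene within 100 kb, TTC38, was also lower, with 603 and 405 fragments and a log2 ratio of -0.70.

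PPARD (ENSGALG00000002588), the PPAR receptor of most tissues and the main one in mammalian skeletal muscle, lies on chromosome 26 from 4089638 to 4106262. It had 395 fragments in the control library and 469 in the tyrosine library, and its FPKM was 17.1 and 18.6. The log2 ratio of 0.12 had an interval from -0.07 to 0.32, so that the libraries were not distinguishable at this depth. PPARD was the more abundant receptor in both libraries. Its FPKM was 4.62 times that of PPARA in the control library and 7.84 times in the tyrosine library. As a share of the fragments of both receptors, PPARD took 79.3% (exact 95% interval from 75.5 to 82.8%) in the control library and 86.7% (from 83.5 to 89.4%) in the tyrosine library.

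PPARGC1A (ENSGALG00000042851), on chromosome 4 from 74475027 to 74593998, encodes PGC-1 alpha, the coactivator known in mammals for driving mitochondrial biogenesis in muscle. It had 125 fragments in the control library and 129 in the tyrosine library, and its FPKM was 3.18 and 3.01. The libraries were nearly level after scaling for depth, with a log2 ratio of -0.08 and an interval from -0.45 to 0.29.

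TFAM (ENSGALG00000002703), on chromosome 6 from 5216875 to 5221892, encodes the factor that coats mitochondrial DNA and starts its transcription. It had 358 fragments in the control library and 503 in the tyrosine library, and its FPKM was 12.0 and 15.5. Test group IV was the higher library, with a log2 ratio of 0.37 and an interval from 0.17 to 0.57. Of all genes, 20.6% were as high or higher in their log2 ratio. The genes encoded by mitochondrial DNA, whose transcription TFAM serves, took 7.69% of the fragments in the control library and 9.05% in the tyrosine library. Of these 35 genes, 54.3% were higher in the tyrosine library, beside 60.6% of all genes. At least 1.5-fold lower were 14.3% (5 genes), beside 8.24% of all genes, and 2.86% (1 gene) were at least 1.5-fold higher, beside 10.04%. Of the 35 genes, 1 had no fragment in the tyrosine library.

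The enzymes had a narrow range of log2 ratios, from -0.10 for HADHA to 0.41 for ACADL. Beside 60.6% of all genes, 4 of the 5 enzymes were higher in the tyrosine library. Their summed FPKM was 204 in the control library and 218 in the tyrosine library. CPT1A (ENSGALG00000007077), on chromosome 5 from 16650443 to 16680509, controls the entry of long-chain fatty acids and is inhibited by malonyl-CoA. It had 869 fragments in the control library and 1033 in the tyrosine library, with FPKM values of 24.9 and 27.2. Its log2 ratio was 0.12 (interval from -0.01 to 0.26), close to that of all genes. CPT2 (ENSGALG00000010681), on chromosome 8 from 24711436 to 24718455, acts on the inner side of the shuttle. It had 269 and 344 fragments and FPKM values of 4.42 and 5.18. Its log2 ratio was 0.23, and the interval from -0.0042 to 0.47 just included 0. The level of CPT1A was 5.64 times that of CPT2 in the control library and 5.25 times in the tyrosine library.

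ACADL (ENSGALG00000002891), on chromosome 7 from 2747214 to 2760913, encodes the long-chain acyl-CoA dehydrogenase, which takes the first step of a round of oxidation. It had 1779 fragments in the control library and 2580 in the tyrosine library, and its FPKM was 42.2 and 56.2. Test group IV was the higher library by a factor of 1.33. The log2 ratio was 0.41 with an interval from 0.32 to 0.50, the largest positive difference of the 10 genes. Of all genes, 17.2% were as high or higher, and of those whose mean FPKM was 10 or more, 9.96%. With TMM scaling it was 0.32.

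HADHA (ENSGALG00000016536) and HADHB (ENSGALG00000016555) encode the alpha and beta subunits of the trifunctional protein, which carries out the last steps of a round on long chains. They are neighbours on chromosome 3, HADHA from 105396910 to 105421148 and HADHB from 105421377 to 105432915, with 228 bases between them. HADHA had 4245 fragments in the control library and 4312 in the tyrosine library, and its FPKM was 85.5 and 79.7. HADHB had 2154 and 2505 fragments, and its FPKM was 46.9 and 50.1. The subunits differed slightly in opposite directions, with log2 ratios of -0.10 (interval from -0.16 to -0.04) for HADHA and 0.09 (from 0.01 to 0.18) for HADHB. HADHA took 66.3% of the fragments of both genes in the control library (exact 95% interval from 65.2 to 67.5%) and 63.3% in the tyrosine library (from 62.1 to 64.4%). The intervals of the share did not overlap, but they hold counting error only. With TMM scaling the log2 ratio of HADHB was 0.0021.

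The level of UCP3 was also compared with those of the enzymes. Its FPKM was 12.3 times that of HADHA in the control library and 6.59 times in the tyrosine library. It made up 81.4% of the summed FPKM of the 10 genes in the control library and 67.1% in the tyrosine library. Without it, the other 9 genes summed to 240 in the control library and 258 in the tyrosine library.

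**Figure D3:**
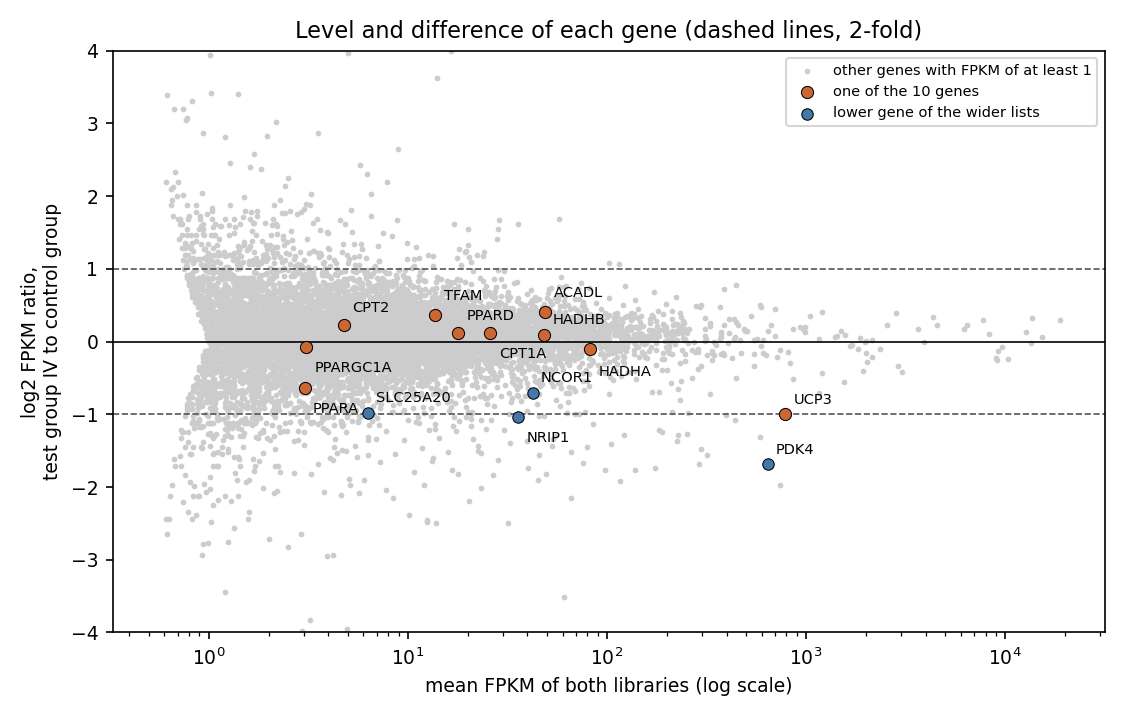
Mean FPKM of both libraries (log scale) against the log2 FPKM ratio of test group IV over the control group for 10966 genes that reached FPKM 1 in either library (grey), with the 10 genes in orange and 4 lower genes of the wider lists in blue. Another 7 genes lie beyond a log2 ratio of 4 in either direction, and 37 genes with no fragment in the tyrosine library have no ratio. UCP3 and PDK4 lie far to the right and below the main cloud, and the enzymes lie close to the line at 0.

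The wider pathway was described with 10 lists of genes by role, which name 100 further symbols. Of these, 74 were found with a single entry, and 70 reached FPKM 1 in either library. PRKAG1, a kinase subunit, had 2 entries and was not counted. Symbols not found included CPT1B, CPT1C and CRAT of the shuttle and ACADM, ACADVL, ACAD10 and ETFB of mitochondrial beta-oxidation. Of the 15073 listed genes, 10067 carried a symbol, so such genes could be listed without one. Of the 70 genes, 3 were at least 1.5-fold higher (4.29%, beside 10.04% of all genes) and 7 were at least 1.5-fold lower (beside 8.24%). Scaling by total counts without the mitochondrial genome gave 5 higher and 7 lower, and adding 1 to each FPKM gave 2 higher and 5 lower. Their median log2 ratio was 0.05, and -0.04 with TMM or median ratio scaling. The lower genes lay in the shuttle, in the control of malonyl-CoA, among the receptors and cofactors and among PPAR-responsive genes. None of the genes found in the oxidation lists was at least 1.5-fold lower.

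**Figure D4:**
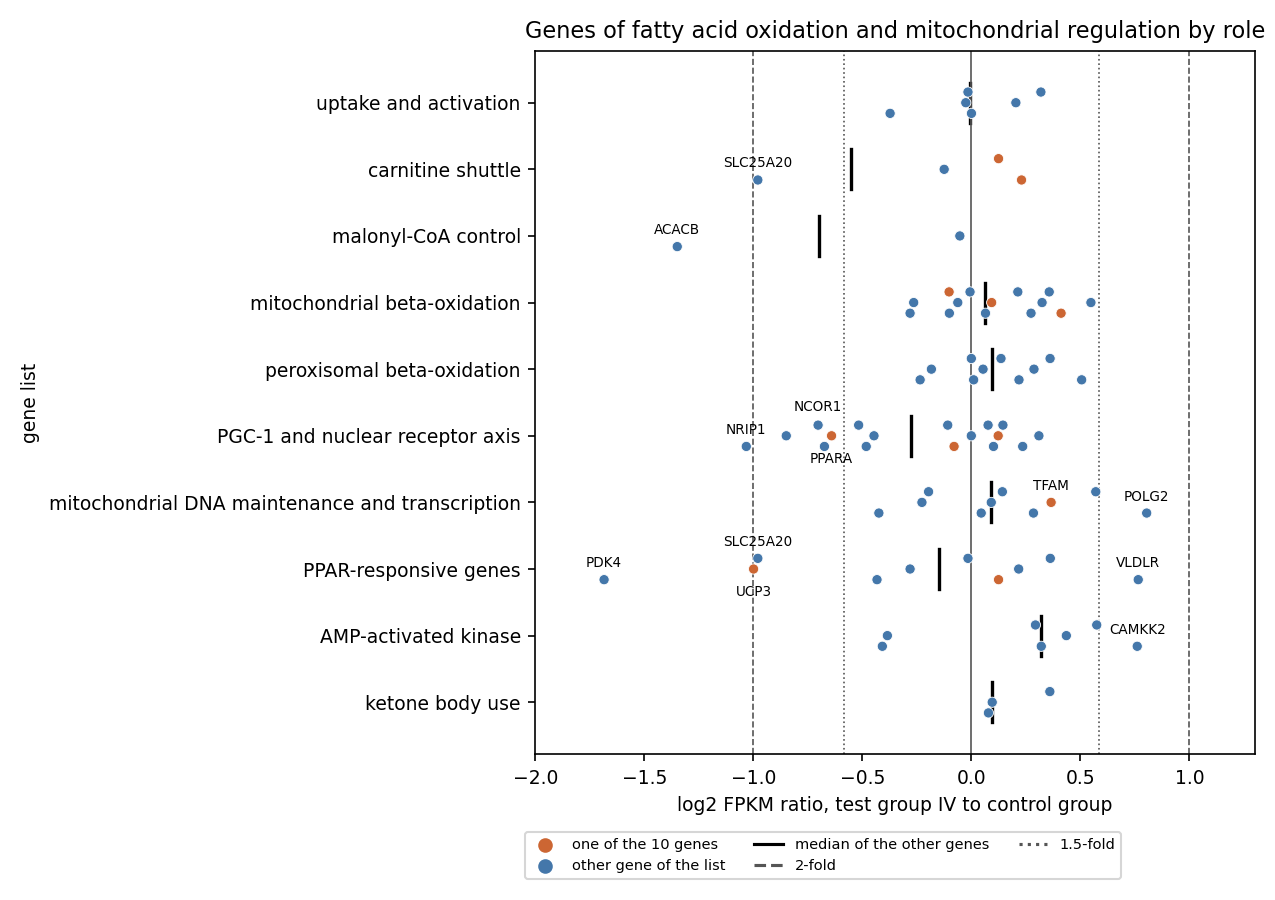
Log2 FPKM ratio of test group IV over the control group for each gene that reached FPKM 1 in 10 lists by role (orange, one of the 10 genes; blue, other genes of the list; black bar, median of the other genes), with lines at 1.5-fold and 2-fold. The oxidation lists lie within 1.5-fold. Beyond it on the lower side lie UCP3, PPARA, NRIP1, NCOR1, PPARGC1B, PPARG, SLC25A20, ACACB and PDK4. VLDLR, POLG2 and CAMKK2 lie beyond it on the higher side.

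In the carnitine shuttle, SLC25A20 stood apart from CPT1A and CPT2. This carrier exchanges acylcarnitine for free carnitine across the inner membrane. It had 510 fragments in the control library and 282 in the tyrosine library, with FPKM values of 8.36 and 4.24. Its log2 ratio of -0.98 (interval from -1.19 to -0.77) was near that of UCP3, and with TMM scaling it was -1.07. SLC22A5, the carnitine importer of the cell membrane, had 106 fragments in each library and a log2 ratio of -0.12 (from -0.53 to 0.28). In the control of malonyl-CoA, ACACB, whose product is the malonyl-CoA that restrains CPT1A at the mitochondrion, was also lower, with FPKM values of 13.8 and 5.42. Its partner ACACA, which serves fatty acid synthesis in the cytosol, had 4.21 and 4.06.

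The other genes of mitochondrial beta-oxidation had a median log2 ratio of 0.06 over 11 genes, and -0.03 with TMM or median ratio scaling. Of these, 6 were higher and 5 lower. None reached 1.5-fold, beside 10.04% of all genes at least 1.5-fold higher and 8.24% lower, which says little for so short a list. ACAD9, an acyl-CoA dehydrogenase that also helps to assemble respiratory complex I, was the most abundant, with FPKM values of 131 and 109. Its log2 ratio was -0.26 (interval from -0.33 to -0.20), and ECI2 had the lowest, -0.28 (from -0.47 to -0.10). ECHS1, the short-chain enoyl-CoA hydratase, had the highest log2 ratio, 0.55 (interval from 0.33 to 0.76), from 291 and 464 fragments. ACADS, the short-chain dehydrogenase, was at 0.36 (from 0.20 to 0.51). ETFDH and ETFA, which pass the electrons of the dehydrogenases on to the respiratory chain, were at 0.27 and 0.32. HADH, the dehydrogenase for shorter chains, had FPKM values of 111 and 103 and a log2 ratio of -0.10 (from -0.19 to -0.01). As with the subunits of the trifunctional protein, then, the steps of 1 pathway differed in both directions by small amounts.

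In peroxisomes, which shorten very long chains, none of 10 genes reached 1.5-fold, beside 10.04% of all genes higher and 8.24% lower by as much. The median log2 ratio was 0.09, or 0.0038 with TMM scaling. SCP2, a sterol carrier and thiolase gene, was the most abundant, with an FPKM of 38.6 in each library. Fatty acid uptake and activation had no gene past 1.5-fold among 6, beside the same shares of all genes. Lists this short can hold none at those shares. FABP3, the fatty acid binding protein of heart and muscle, had FPKM values of 152 and 150. The 3 genes of ketone body use all had log2 ratios above 0, with a median of 0.10 that was 0.0047 with TMM scaling, at which 1 of the 3 was below 0. ACAT1, the mitochondrial thiolase, was the most abundant of them, at 68.9 and 72.8.

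The receptors and cofactors held most of the lower genes. Of 15 genes found besides the members, RXRG, with 2 fragments and 1, did not reach FPKM 1. Of the other 14, 4 were at least 1.5-fold lower (28.6%, beside 8.24% of all genes) and none was at least 1.5-fold higher (beside 10.04%), and the median log2 ratio was -0.28. With TMM or median ratio scaling 5 were at least 1.5-fold lower and the median was -0.37. With 1 added to each FPKM, PPARGC1B and PPARG fell inside the 1.5-fold limit. A list of 14 genes, chosen with earlier results known, says little beside the shares of all genes. NRIP1, a corepressor known in mouse muscle for holding back oxidative genes, had 2195 fragments in the control library and 1170 in the tyrosine library. Its FPKM was 48.2 and 23.6, a log2 ratio of -1.03 (interval from -1.14 to -0.93). NCOR1, another corepressor of nuclear receptors, had 5789 and 3877 fragments and FPKM values of 52.6 and 32.3. Its log2 ratio was -0.70 (from -0.76 to -0.64). The lower genes thus included repressors as well as activators. PPARGC1B, the sister coactivator of PPARGC1A, had 180 and 123 fragments, FPKM values of 4.24 and 2.66 and a log2 ratio of -0.67 (from -1.02 to -0.34) that was -0.52 with 1 added to each FPKM. PPRC1, the third member of that family, was at -0.48 (from -0.74 to -0.23).

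PPARG, the adipocyte PPAR receptor, was the other lower gene of this list, with only 38 and 23 fragments and a log2 ratio of -0.85 (interval from -1.66 to -0.06) that was -0.43 with 1 added to each FPKM. It reached FPKM 1 in the control library only. Markers of adipocytes, which share PPARG, ACACB and LPL with lipid-handling muscle, were lower in the same direction. Of 7 markers, 5 were found, and their summed FPKM was 70.9 in the control library and 45.3 in the tyrosine library. PLIN1, the coat protein of fat droplets, had 68 and 30 fragments, LPL, the lipoprotein lipase, had 422 and 245, and ADIPOQ, the hormone adiponectin, had 1201 and 893. CIDEC had 5 fragments in the control library and 0 in the tyrosine library. The part of adipocytes in the differences of PPARG, ACACB or the members was not tested.

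Of the 7 slow fibre markers found, 6 were lower in the tyrosine library. Only 4 reached FPKM 1, and 3 of these were lower and 1 higher, beside 60.6% of all genes higher. ATP2A2, the calcium pump of slow fibres and heart, was the higher one, with FPKM values of 5.01 and 5.50 and a log2 ratio of 0.14. MYOZ2, a Z-disc protein, had 37 and 32 fragments. Its interval from -1.06 to 0.39 included 0, as did that of ATP2A2, from -0.05 to 0.32. TNNT1, with 10 and 3 fragments, and MYL3, with 4 and 2, stayed under FPKM 1, and their intervals also included 0. MYH7B, a slow myosin that stayed under FPKM 1, had 81 fragments in the control library and 22 in the tyrosine library, a log2 ratio of -2.01 (from -2.76 to -1.31) that was -0.68 with 1 added to each FPKM, and TNNI1 had 16 and 6. The summed FPKM of the slow list was 9777 and 8341, nearly all of it TNNC1. All 9 melanocyte markers were found. In the tyrosine library 8 were higher, beside 60.6% of all genes, and KIT, with 49 and 47 fragments, was lower at -0.18. The intervals of KIT and of SOX10, a higher one with 41 and 54 fragments, included 0. The summed FPKM of the 9 markers was 23.4 in the control library and 46.3 in the tyrosine library, of which MITF, the regulator of the pigment cell, took 21.1 and 32.9. Without MITF the sums were 2.33 and 13.4, and 5 of the 6 markers that reached FPKM 1 did so in the tyrosine library alone. Of 8 erythrocyte markers, only 2 were found, the globin genes HBAA and HBAD. Their summed FPKM was 23.2 in the control library and 23.0 in the tyrosine library, most of it HBAA. The log2 ratio was -0.05 for HBAA and 0.14 for HBAD, which had only 30 and 36 fragments. The part of fibre type, melanocytes or blood in the members' differences was not tested.

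Among genes known in mammals to respond to PPAR receptors, the difference of UCP3 had a larger counterpart. PDK4, the kinase that shuts off pyruvate dehydrogenase when fatty acids are burned, had 48055 fragments in the control library and 16297 in the tyrosine library. Its FPKM was 981 and 305, a log2 ratio of -1.68 (interval from -1.71 to -1.66). Of the 401 genes whose mean FPKM was 100 or more, 5 were as low or lower, itself included, and of all genes 1.2% were. In depth-scaled fragments, PDK4 had the sixth largest deficit of all listed genes in the tyrosine library and UCP3 ranked 17. VLDLR, the receptor for triglyceride-rich lipoproteins, went the other way, with FPKM values of 46.1 and 78.3 and a log2 ratio of 0.77 (from 0.69 to 0.85). Of the 8 genes of this list other than UCP3 and CPT1A, 2 were at least 1.5-fold lower and 1 higher. The shares of all genes were 8.24% lower and 10.04% higher by as much, and a list this short says little beside them. The lower genes were PDK4 and SLC25A20, and SLC25A20 is also the lower gene of the carnitine shuttle described above. ANGPTL4, a secreted inhibitor of lipoprotein lipase, had 26 and 21 fragments and a log2 ratio of -0.43 (from -1.34 to 0.45). PLIN2, the droplet coat of muscle cells, was at -0.28 (from -0.39 to -0.17). Of the 8 genes, 3 were higher and 5 lower, beside 60.6% of all genes higher. Their median log2 ratio was -0.15, and -0.24 with TMM scaling.

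Around TFAM, the other genes of mitochondrial DNA maintenance had a median log2 ratio of 0.09 over 9 genes, and 0.00037 with TMM scaling. POLG2, the accessory subunit of the mitochondrial DNA polymerase, was the only gene of this list past 1.5-fold (11.1% higher, beside 10.04% of all genes). MTERF3 also passed when libraries were scaled without the mitochondrial genome. POLG2 had 52 fragments in the control library, 99 in the tyrosine library and a log2 ratio of 0.80 (interval from 0.31 to 1.32). MTERF3, a factor that restrains mitochondrial transcription in the mouse, was at 0.57 (from 0.31 to 0.83). SSBP1, the single-strand binding protein, had the highest level, with FPKM values of 28.9 and 30.8. POLRMT, the RNA polymerase of mitochondria, was at 0.14 (from -0.03 to 0.32). GABPA, a nuclear factor that switches on TFAM in mammals, was at 0.31 (from 0.22 to 0.40), and its partner GABPB1 had an FPKM of 6.16 in both libraries.

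The AMP-activated kinase, which senses low energy and acts upstream of PPARGC1A and the acetyl-CoA carboxylases, had a median log2 ratio of 0.32 over 7 genes, and 0.23 with TMM scaling. Of these, 5 were higher and 2 lower. PRKAG3, the gamma subunit of fast glycolytic muscle, was the most abundant, with FPKM values of 112 and 167 and a log2 ratio of 0.58 (interval from 0.51 to 0.64). PRKAA2, the catalytic subunit of skeletal muscle, was at 0.44 (from 0.35 to 0.53). PRKAB2, the beta subunit of muscle, was lower, at -0.39 (from -0.46 to -0.31). STK11, the main kinase upstream of the complex, was the lowest, with 1014 and 833 fragments and a log2 ratio of -0.41 (from -0.54 to -0.27). CAMKK2, another kinase that activates the complex, had 59 and 109 fragments and was the only gene past 1.5-fold, at 0.76 (from 0.29 to 1.24). That is 14.3% of the 7 genes, beside 10.04% of all genes at least 1.5-fold higher. PRKAG3 also passed when libraries were scaled without the mitochondrial genome, and with 1 added to each FPKM CAMKK2 was at 0.54 and did not pass.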

How the data were processed

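The authors cleaned the reads with Seqtk and mapped them to Galgal5 with TopHat 2.0.9. They used StringTie 1.3.0 to count the fragments of each gene, name TMM normalization of the values, and calculated FPKM values. The depth ratio in the deposited FPKM values was 1.09025, near the 1.09006 of total counts, whereas TMM scaling gave 1.16124. The deposited counts are whole numbers, and the deposited FPKM values were used without a pseudocount. The libraries were made with a strand-marking kit, but whether counting used strand is not given in the sources used here. The submitters' processing notes also name HISAT2, without a role.

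Groups, and so every direction, were taken from the diet labels. With 1 library per group, no test was made. Log2 ratios are FPKM ratios, and intervals are Clopper-Pearson intervals of the counts, divided by the depth ratio of 1.09025. The paper names no step that removed duplicate reads from PCR, and none could be removed from the counts here. A count of 3 fragments is 2.28e-05% of the control library and 2.10e-05% of test group IV. Shares of all genes refer to those reaching FPKM 1 in either library, all of which had fragments in the control library. On simulated counts of 15073 genes the interval contained the true 2-fold change in 96.5% of 200 changed genes. The changed genes were drawn only from those above a minimum count in the control library, so this share does not cover lower counts. The simulated counts held counting error only, at a known scale. They checked the calculation and say nothing on the spread between birds or libraries.

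The members and lists were chosen with earlier results of these data known. Besides the members, the rule named the most abundant gene of each list and up to 3 genes per direction past 1.5-fold with at least 20 fragments. Other genes were named after their values were seen. Alternatives were 4 other scalings, among them the TMM factors of edgeR 4.0.16 in R 4.3.3, adding 0.1 or 1 to each FPKM, and 2 filters. Calculations ran in Python 3.11.15 (scipy 1.17.1, pandas 2.3.3, numpy 2.4.6), and plots in matplotlib 3.10.9. No gene sequences were used here.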

Additional observations from a re-analysis of the deposited data

How the results depend on the processing

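All 10 genes kept their direction under 8 alternatives, of which the pseudocounts and filters could not have changed one. Of 445 recalculated values, 45 left the counting interval or moved a count by over 1.5 times, none with a change of sign past 1.5-fold. The number of members at least 2-fold lower went from 0 to 1 (UCP3) with TMM scaling and with median FPKM ratio scaling. With 1 added to each FPKM, 1 member instead of 2 was at least 1.5-fold lower, since PPARA was no longer past the limit. Scaling by total counts without the mitochondrial genome gave 5 instead of 3 genes of the wider lists at least 1.5-fold higher. Over all genes, 341 were at least 2-fold higher and 364 lower. With 1 added to each FPKM these were 99 and 173, and without a filter 845 and 800. At 1.5-fold, 586 were higher and 550 lower with 1 added, and 1979 and 1630 without a filter. No paired analysis was possible because each group has 1 library, and no replicate could be left out. PPARA and PPARGC1A had at most 129 fragments per library, so depth limits them most.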

Other observations

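UCP3 and SLC25A20 belong to the mitochondrial carrier family, and the rest of this family was looked at after their values were seen. Without these, 25 carriers reached FPKM 1 in either library. Of these, 2 (8.0%) were lower in the tyrosine library by 1.5-fold or more, near the 8.24% of all genes, and none was higher by as much, beside 10.04%. Their median log2 ratio was 0.07, and 14 were above 0. The lower carriers were SLC25A33, a pyrimidine nucleotide carrier, with 129 and 71 fragments and a log2 ratio of -0.99 (interval from -1.43 to -0.56), and SLC25A22, a glutamate carrier, with 47 and 31 fragments and -0.73 (from -1.43 to -0.04), which reached FPKM 1 in the control library only. SLC25A4, the ADP/ATP carrier of muscle, had FPKM values of 874 in the control library and 1005 in the tyrosine library. UCP3 was above it in the control library, with 1050, and below it in the tyrosine library, with 525.

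PDK4 differed from the other pyruvate dehydrogenase kinase genes found. PDK1 had 269 and 354 fragments and a log2 ratio of 0.27 (interval from 0.04 to 0.51). PDK3 had 2647 and 3072 fragments and a log2 ratio of 0.09 (from 0.01 to 0.17), while PDK4 was at -1.68.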
